A study of Arabidopsis thaliana with 16 samples.

Results

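The transcripts described here are 63 probe sets, of 22746 that are not controls, whose signal was lower 4 h than 2 h after a spray with gibberellin alone in shoots of an Arabidopsis thaliana line carrying an inducible DELLA transgene. They were picked by measured values. The mean log2 signal at 4 h had to lie at least 0.7 below that at 2 h, all 3 arrays at 4 h had to lie below all 3 at 2 h, and the mean signal at 2 h had to reach 100. Signals under 8 were raised to 8 before taking log2. GH3.3, EXLA1, EXLA2, genes whose symbols start with EXP, XTH or UGT, and probe sets whose level changed by -0.8 or lower or by 1 or higher with dexamethasone in a control line were left out. Of 157 probe sets that met the first 3 conditions, 94 went past the bounds set on the control line (46 lower and 48 higher), among them all 4 that were left out by symbol, which were GH3.3, EXLA1, XTH18 and UGT73B5. Of the 63 members, 29 stand for 1 named gene each, and the other 34 have no gene in the probe table used here and are given by probe set.

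The series measured RNA from shoots with 1 single-colour ATH1 array per sample, 16 in all, to find genes that respond early to a DELLA protein. All seedlings were of the Landsberg erecta (Ler) ecotype, 8 days old, grown on sucrose medium in continuous light, and received a first spray of gibberellin GA4 (2 µM) 16 h before the experiment. The rga line carries a construct that expresses rga-delta17, a dominant DELLA protein that gibberellin does not remove, when dexamethasone (DEX) is given. The vector line carries the same construct with an empty cassette. At the start of the experiment seedlings were sprayed with 2 µM GA4 (mock) or with 2 µM GA4 and 10 µM DEX. The rga line had 3 biological replicates of each treatment at 2 h and at 4 h, and the vector line had 2 of each treatment at 4 h and none at 2 h. So every group received GA4, no group was left unsprayed, and a time change can be measured in the rga line only. The labels do not say how many independent lines carried each construct, which promoter drives it, or at what clock time shoots were cut. Time since the spray and any other difference between the 2 h and 4 h collections therefore cannot be told apart.

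Gibberellins promote growth of shoots. The hormone binds GID1 receptors, and the bound receptor delivers DELLA proteins, nuclear repressors of gibberellin responses, to an F-box protein that marks them for destruction. Deleting the DELLA motif, as in rga-delta17, leaves a repressor that the receptor does not recognise. A transcript's level at any moment reflects both how fast it is made and how fast it is broken down, and an array measures the amount only.

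On the mock arrays of the rga line, which chose the members, the median member had a log2 difference of -0.92 (4 h minus 2 h), with a range from -2.44 to -0.70. This is a fold of 1.89 for the median member and 1.62 to 5.44 over all 63, and 26 members differed by at least 2-fold. Over the 14152 probe sets with a mean 2 h mock signal of at least 100 the median difference was 0.01. The members' mean signals at 2 h ran from 103 to 9598 with a median of 353, and those at 4 h from 42.5 to 5780 with a median of 197. These values describe the selection and carry no test. At the threshold on the difference, the 3 nearest probe sets inside were AT5G04480 at -0.7001, 255344_s_at at -0.7042 and 261252_at at -0.7044, and the 3 nearest outside were 264157_at at -0.6991, 255538_at at -0.6921 and 258336_at at -0.6918. At the threshold on signal, 264034_s_at (103), AT2G27790 (104) and 252639_at (105) were just inside, and AT3G24840 (98.4), AT1G22810 (97.7) and AT1G02830 (96.6) were just outside. At the lower bound on the vector line's DEX minus mock change, 258037_at (-0.74), AT1G02620 (-0.73) and AT4G31000 (-0.69) were inside, and AT2G39420 (-0.81), 254015_at (-0.83) and MSRB9 (-0.91) were outside. At the upper bound, AT3G47180 (0.96), AT5G25440 (0.91) and AT5G02430 (0.85) were inside, and 246870_at (1.01), 246195_at (1.02) and 251124_s_at (1.03) were outside.

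Array by array, the median signal over the 63 members was 297, 337 and 363 on the mock arrays at 2 h and 138, 185 and 194 on the mock arrays at 4 h. With DEX, on arrays that the selection did not use, it was 307, 353 and 356 at 2 h and 160, 181 and 205 at 4 h. The vector line at 4 h had medians of 293 and 300 in mock and 307 and 340 with DEX. The 3 DEX arrays at 4 h thus all lay below the 3 at 2 h, and all 4 vector arrays lay above every rga array at 4 h. The selection asked for low rga mock values at 4 h and bounded the vector line's DEX change. The gap between the vector arrays and the rga mock arrays at 4 h is therefore partly built in. The median over all non-control probe sets was 137 to 192 on the 16 arrays, lowest on both vector DEX arrays. These 2 arrays stood apart from the rest: their Pearson's r of log2 signals with the remaining arrays was 0.863 to 0.919, against 0.934 to 0.974 among the remaining arrays. Because whole shoots were extracted, fewer cells of a type and less RNA per cell cannot be told apart.

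**Figure D1:**
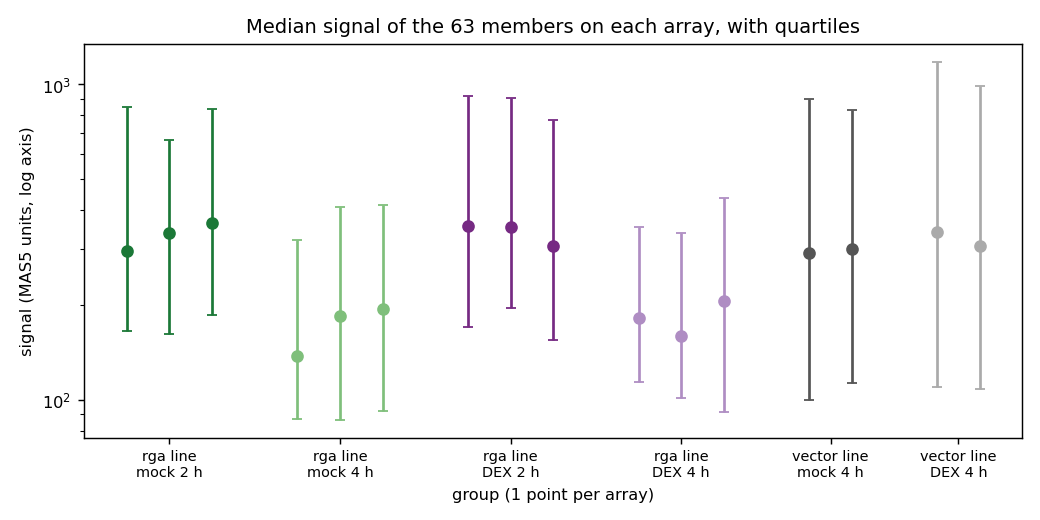
Median signal of the 63 members on each of the 16 arrays (points; logarithmic axis in MAS5 units), with the lower and upper quartile over members (bars). The medians of the DEX arrays lie at 307 to 356 at 2 h and 160 to 205 at 4 h, and those of the vector line lie between 293 and 340.

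The same 2 h interval was then measured on the 6 DEX arrays of the rga line, which had no part in the choice of members. With DEX present the members again had lower levels at 4 h. Of the 63, 38 (60.3%) fell and 0 rose (limma over all 17059 probe sets tested, adjusted p below 0.05), against 2.2% of all tested probe sets called lower and 1.95% called higher. At an unadjusted p below 0.05, 47 were lower and 0 higher, but the share of all tested probe sets at that threshold was not counted. Members are bright by rule, and all 63 passed the filter on dim probe sets. Among tested probe sets that met the same signal minimum, 2.64% were called lower. The median change over the members was -0.89 on the log2 scale, with a range from -2.60 to 0.77, and the median of all tested probe sets was 0.00. All 3 DEX arrays at 4 h lay below all 3 at 2 h for 48 members, an order seen in 10.5% of all tested probe sets and in 11.1% of the bright ones. The reverse order was seen in 0 members. The mean change was below 0 in 56 members and above 0 in 7, and none of these 7 was called. The fall with DEX was larger than the difference in mock for 30 of the 63. The mock value is the one used for selection, so no test was made of this comparison.

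Signal differed between called and uncalled members. The 38 called members had a median 2 h mock signal of 643 (range 156 to 9598), and the 25 that were not called had a median of 138 (103 to 891). When members were split by their mean over all 16 arrays, 27 of the brighter 31 were called and 11 of the dimmer 32. The changes of the 25 members not called ran from -1.28 to 0.77 with a median of -0.32, and 10 of them still had all 3 DEX arrays at 4 h below all 3 at 2 h. Of the 26 members with a mock difference of -1 or lower, 19 were called. By naming, 16 of 29 members with a gene name and 22 of 34 without one were called. The part of low signal in the missing calls was not tested.

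**Figure D2:**
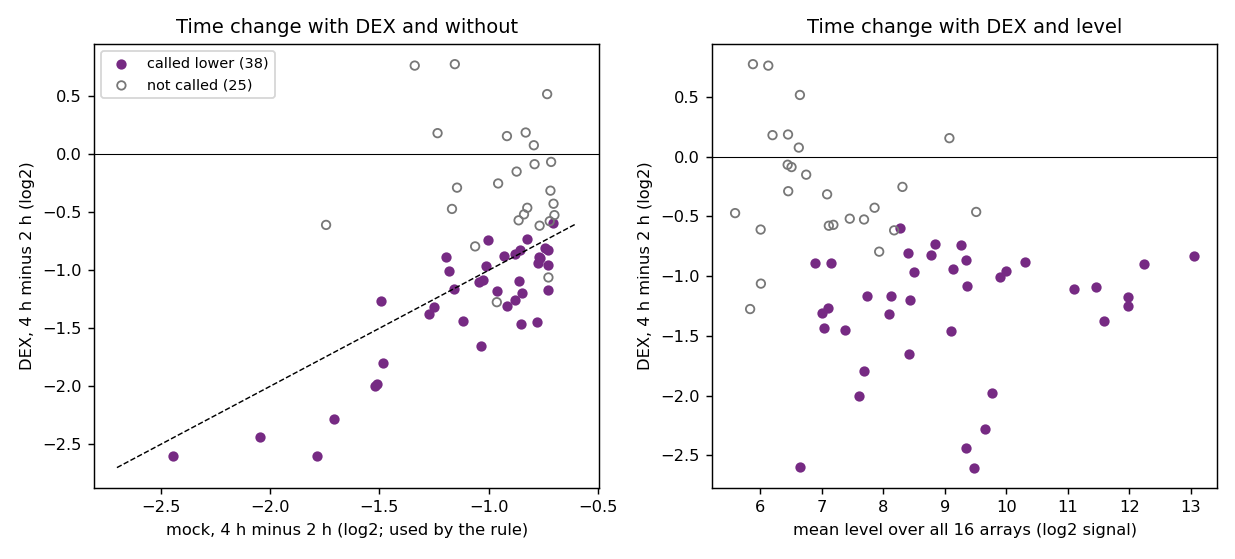
Log2 change from 2 h to 4 h with DEX for each of the 63 members, against the mock difference that chose them (left; the dashed line marks equal values) and against the mean log2 signal over all 16 arrays (right). Filled points are the 38 members called lower and open points the 25 not called; the 7 positive changes all belong to members that were not called.

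Named members are described by the family of their product, which comes from general knowledge of these loci and not from the files; the grouping was made after the values had been seen, and no enrichment was tested. The largest group holds 6 protein kinases, enzymes that pass signals by phosphorylating other proteins, and 4 of the 6 fell with DEX (AT5G20050, AT5G25440, AT3G59350 and AT1G51620). AT5G25440 had signals of 437, 589 and 607 on the DEX arrays at 2 h and 149, 152 and 222 at 4 h. In mock the values were 306, 431 and 539 at 2 h and 138, 226 and 264 at 4 h. The DEX groups did not overlap, whereas the selection allowed no overlap of the mock groups in any member. The DEX change was -1.65 ± 0.23 (log2, SE; adjusted p = 0.000434). AT5G20050 was tighter: its DEX signals were 908, 921 and 987 at 2 h and 413, 425 and 497 at 4 h. Its mock signals were lower at both times, 579, 666 and 761 at 2 h and 294, 301 and 391 at 4 h. The DEX change of AT5G20050 was -1.08 ± 0.12 (adjusted p = 6.64e-05), beside a mock difference of -1.03. AT3G59350, whose product is a kinase of the Pti1-like type, had DEX signals of 493, 502 and 511 at 2 h and 233, 253 and 287 at 4 h. Its 2 h arrays differ from each other by far less than the step to 4 h, and its change was -0.97 ± 0.13 (adjusted p = 0.000279). AT1G51620 went from 176, 230 and 246 to 72.0, 89.2 and 103, a change of -1.31 ± 0.22 (adjusted p = 0.00214).

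The other kinase genes, AT5G40540 and AT4G31250, were not called. AT5G40540 had DEX signals of 271, 279 and 343 at 2 h and 178, 220 and 224 at 4 h. All 3 later arrays were lower, but the change of -0.52 ± 0.19 had an adjusted p of 0.153. AT4G31250, which encodes a leucine-rich repeat kinase, had 60.1, 124 and 174 at 2 h and 114, 124 and 135 at 4 h, so its groups overlapped, with a change of 0.19 ± 0.35 (adjusted p = 0.87).

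The 4 members grouped here as membrane or membrane-associated proteins all fell with DEX. Each member was put in 1 group only, and the kinases and enzymes were not sorted by whether they sit in membranes. The 4 are therefore not every member with a membrane product. AT1G52200, which encodes a PLAC8-family protein, was among the brightest, with DEX signals of 4702, 4752 and 5017 at 2 h and 1734, 2325 and 2400 at 4 h. In mock it gave 5172, 5313 and 5362 at 2 h and 2206, 2960 and 3047 at 4 h. The change with DEX was -1.18 ± 0.12 (adjusted p = 2.83e-05), a fold of 2.26. AT1G69840, which encodes a band 7 protein of the SPFH type, a class that sits in membrane microdomains, had 3197, 3326 and 3656 at 2 h and 1395, 1502 and 1870 at 4 h. Its mock signals were 2889, 3066 and 3978, then 1490, 1581 and 1697. The DEX change (-1.10 ± 0.12, adjusted p = 5.99e-05) and the mock difference (-1.05) of AT1G69840 were nearly equal. AT5G35735, whose product combines a DOMON domain with a cytochrome b561 domain, an electron carrier of membranes, went from 3340, 3588 and 3866 to 1644, 1652 and 1772 with DEX, a change of -1.09 ± 0.13 (adjusted p = 0.000103). AT2G24600, which encodes an ankyrin-repeat protein, went from 760, 927 and 942 to 382, 532 and 542, a change of -0.86 ± 0.16 (adjusted p = 0.00343).

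Of 6 members that encode enzymes, 2 fell with DEX. AT4G20860, a berberine bridge enzyme-like oxidase, had DEX signals of 356, 368 and 510 at 2 h and 125, 216 and 220 at 4 h. The groups did not overlap, and the change was -1.16 ± 0.23 (adjusted p = 0.00605), the same size as the mock difference of -1.16. AT5G39580, a class III peroxidase of the kind secreted to the cell wall, had 1099, 1292 and 1441 at 2 h and 444, 719 and 788 at 4 h. Its change of -1.01 ± 0.22 (adjusted p = 0.0118) was no longer called without DEX 2 h replicate 2 or without DEX 4 h replicate 2, when it stood at -0.92 and -0.75. The glycosyltransferase-family members AT4G30060 and AT5G04480 had changes of -0.62 ± 0.18 (adjusted p = 0.0691) and -0.53 ± 0.19 (adjusted p = 0.149). AT1G26320, a zinc-type dehydrogenase with a mock difference of -1.74, was dim and scattered, with DEX signals of 70.5, 96.3 and 155 at 2 h and 39.7, 52.2 and 143 at 4 h. Its change of -0.61 ± 0.53 had an adjusted p of 0.656.

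AT2G39710, which encodes an aspartyl protease, was well measured and had no lower level at 4 h with DEX. In mock it gave 640, 650 and 809 at 2 h and 289, 408 and 423 at 4 h, whereas with DEX it gave 629, 645 and 786 at 2 h and 641, 793 and 865 at 4 h. The DEX arrays of the 2 times overlapped, with a change of 0.15 ± 0.18 (adjusted p = 0.753). The mock part of this contrast was used for selection, so the difference between the courses was not tested.

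Among 4 members with other signalling roles, AT2G22880 and AT4G31000 fell with DEX. AT2G22880 encodes a VQ-motif protein, a class that binds WRKY transcription factors. Its DEX signals were 280, 310 and 313 at 2 h and 90.4, 137 and 142 at 4 h, a change of -1.32 ± 0.26 (adjusted p = 0.00621). AT4G31000, which encodes a calmodulin-binding protein, went from 307, 338 and 341 to 121, 156 and 167, by -1.17 ± 0.17 (adjusted p = 0.000434). In both genes the 2 h arrays agreed closely, and every 4 h array was lower. AT3G47180, a RING-finger gene, had 88.0, 99.4 and 99.6 at 2 h and 15.9, 48.9 and 79.0 at 4 h, and its change of -1.28 ± 0.49 was not called (adjusted p = 0.194). AT1G02620, a Ras-like small GTPase gene, changed by -0.15 ± 0.26 (adjusted p = 0.85).

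The remaining named members fall into no common role. AT2G44370, which encodes a cysteine- and histidine-rich C1-domain protein, had the largest fall of any named member with DEX. Its signals were 1023, 1263 and 1360 at 2 h and 212, 302 and 449 at 4 h with DEX, and 915, 1283 and 1578, then 258, 546 and 569 in mock. The DEX change was -1.98 ± 0.28 (adjusted p = 0.000368), a fold of 3.94. AT5G02430, a WD40-repeat gene, went from 162, 169 and 195 to 117, 117 and 118 without passing the test (-0.57 ± 0.22, adjusted p = 0.195). AT1G17630, a pentatricopeptide repeat gene, gave -0.07 ± 0.26 (adjusted p = 0.938). AT2G34700, an Ole e 1-type extensin gene, had 1 DEX array at 4 h under the floor of 8, with signals there of 7.78, 86.8 and 89.3, and a change of -1.06 ± 0.66 (adjusted p = 0.488). Without that array (DEX 4 h replicate 3) the change of AT2G34700 stood at 0.09.

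For 5 named members no family is given here, and 3 of them fell. AT1G19380 was the clearest, with DEX signals of 4989, 5212 and 6012 at 2 h and 1896, 2009 and 2341 at 4 h. The matching mock signals were 4252, 4376 and 4718, then 1533, 1957 and 2079. Its DEX change was -1.38 ± 0.11 (adjusted p = 2.01e-06), a fold of 2.60. AT3G50900 went from 278, 319 and 350 to 142, 197 and 207 (-0.81 ± 0.17, adjusted p = 0.00891), and its call was lost without DEX 2 h replicate 1 (-0.73) or DEX 4 h replicate 2 (-0.64). AT5G67020, with signals of 166, 173 and 228 at 2 h and 68.4, 103 and 146 at 4 h, was at the edge of the test (-0.89 ± 0.25, adjusted p = 0.0495). Of the 6 DEX arrays, each left out in turn, all but DEX 4 h replicate 1 ended the call, with changes from -0.97 to -0.61. AT2G27790 (0.18 ± 0.44) and AT3G22430 (0.08 ± 0.32) were not called.

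**Figure D3:**
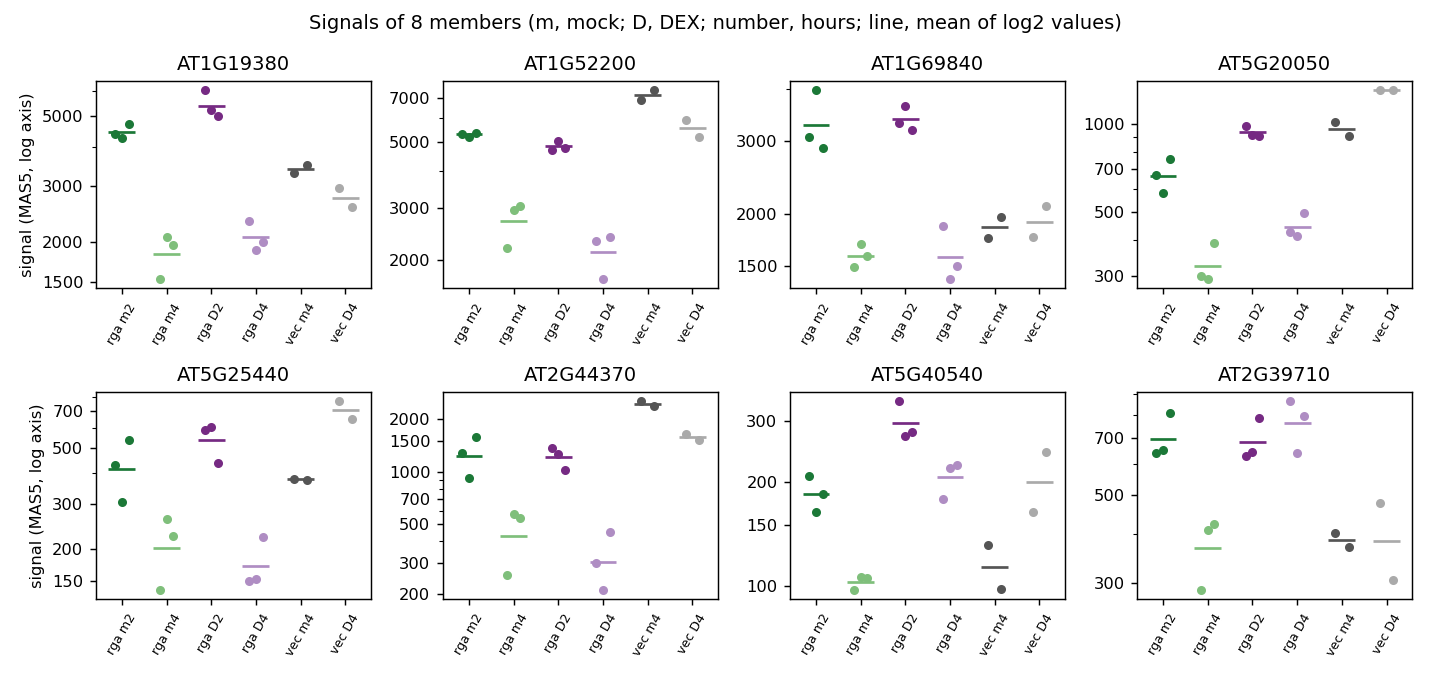
Signals of 8 named members on every array (points; logarithmic axes in MAS5 units) with the mean of log2 values of each group (lines), for the rga line at 2 h and 4 h and the vector line at 4 h, in mock (m) and with DEX (D). In AT1G19380, AT1G52200, AT1G69840, AT5G20050, AT5G25440 and AT2G44370 all DEX arrays at 4 h lie below all at 2 h, whereas in AT2G39710 the DEX arrays of both times overlap.

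The largest falls of all belonged to probe sets without a gene in the table. Probe set 264213_at had DEX signals of 1666, 1711 and 1852 at 2 h and 264, 294 and 304 at 4 h, a change of -2.60 ± 0.19 (adjusted p = 7.19e-07). Probe set 258037_at went from 1008, 1730 and 1739 to 250, 259 and 295 (-2.44 ± 0.19, adjusted p = 1.27e-06). Probe set 264886_at, which had the largest mock difference (-2.44), went from 86.6, 182 and 218 to 14.4, 32.3 and 33.2 (-2.60 ± 0.49, adjusted p = 0.00453). In these 3 probe sets the DEX arrays of the 2 times lay far apart. Of the 29 named loci, 0 pairs were neighbours in the RefSeq gene order, and the closest pair was 25 genes apart.

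Besides the time course, the members' response to DEX itself was read from the effect averaged over 2 h and 4 h in the rga line. This contrast weights both mock times equally and so does not use the difference that chose the members, although it uses the same mock arrays, and the selection had also bounded the DEX change in the vector line. Averaged over the times, 6 members (9.52%) were higher and 5 (7.94%) lower with DEX, where 5.69% of all tested probe sets were called higher and 3.91% lower. Most members, 52 of 63, were not called. The median effect over the members was 0.02 on the log2 scale, the median of all tested probe sets was -0.02, and the members ranged from -0.96 to 0.84. Both shares lie above those of all probe sets, but they rest on 6 and 5 members and the difference was not tested. Nothing is read from them about the members as a group.

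The kinase gene AT5G40540 had the highest averaged effect, 0.84 ± 0.13 (adjusted p = 0.000286). Its mock signals were 163, 185 and 208 at 2 h and 97.8, 106 and 106 at 4 h, and every DEX array named above lay higher than every mock array of its time. The aspartyl protease gene AT2G39710 had 0.51 ± 0.13 (adjusted p = 0.0127), with overlapping mock and DEX arrays at 2 h and all DEX arrays above all mock arrays at 4 h. The kinase gene AT5G20050 had 0.47 ± 0.09 (adjusted p = 0.00154), and its DEX arrays lay above its mock arrays at both times. The peroxidase gene AT5G39580 had 0.55 ± 0.15 (adjusted p = 0.0283), which no longer passed when 1 of these 8 arrays was left out (replicate 1 or 2 of mock 2 h, mock 4 h or DEX 2 h, or replicate 1 or 3 of DEX 4 h), with effects from 0.42 to 0.56. Probe sets 253101_at (0.51 ± 0.14) and 259579_at (0.48 ± 0.13) were also higher. The lower ones were AT3G50900 (-0.52 ± 0.12, adjusted p = 0.00713) and the probe sets 251895_at (-0.50 ± 0.10), 252906_at (-0.54 ± 0.10), 266246_at (-0.75 ± 0.20) and 265466_at (-0.96 ± 0.22). Of these 11 members, 5 had also fallen from 2 h to 4 h with DEX, 2 with a higher averaged level (AT5G20050 and AT5G39580) and 3 with a lower one (AT3G50900, 251895_at and 252906_at).

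The vector line's DEX minus mock changes, which the selection bounded, stand beside these as values only. They were 0.82 in AT5G40540, 0.67 in AT5G39580, 0.44 in AT5G20050, -0.01 in AT2G39710 and -0.42 in AT3G50900. AT5G40540, for example, gave 97.9 and 132 in vector mock and 164 and 244 in vector DEX. Over all members the vector change had a median of 0.04 and ran from -0.74 to 0.96. The DEX minus mock differences at single times share the arrays of the selection, which pushes the 2 h difference down and the 4 h difference up, and were not tested. Their medians were -0.02 at 2 h (range -1.59 to 0.68) and 0.00 at 4 h (range -0.85 to 1.11).

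**Figure D4:**
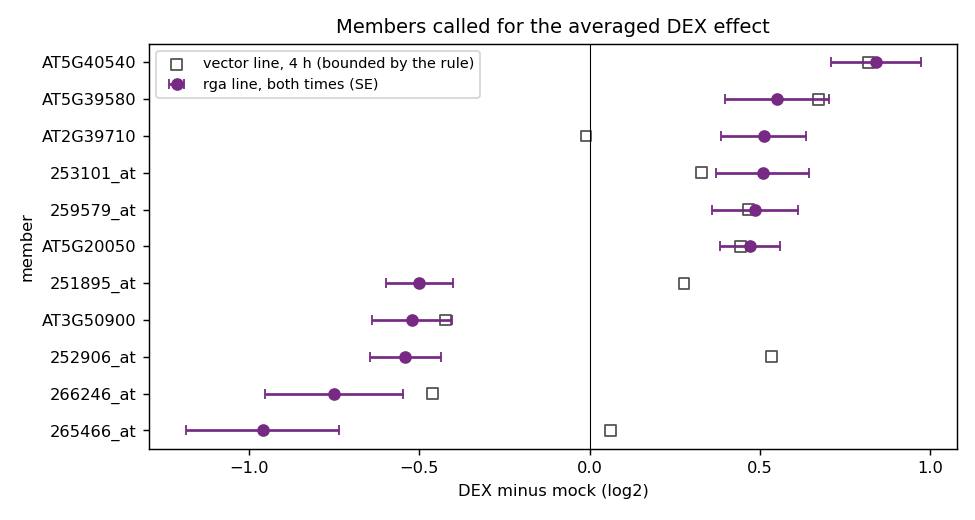
Log2 difference of DEX minus mock for the 11 members called in the rga line, averaged over 2 h and 4 h (filled points with SE), beside the change in the vector line at 4 h (open squares; bounded by the selection, with no error drawn). The 6 higher members range from 0.47 to 0.84 and the 5 lower ones from -0.96 to -0.50; in 252906_at, 251895_at, 265466_at and AT2G39710 the vector line's value has the opposite sign, and in the last 2 of these it lies near 0, at 0.06 and -0.01.

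In the vector line under mock treatment at 4 h, the members' levels were spread around those of the rga line. The mean of the vector mock arrays lay between the rga 2 h and 4 h mock means in 31 members, above the 2 h mean in 19 and below the 4 h mean in 13. The median difference from the rga mock arrays was -0.44 against 2 h (range -2.14 to 1.72) and 0.52 against 4 h (range -1.10 to 3.2), where the medians over bright probe sets were -0.06 for both. The members were chosen for high rga values at 2 h and low ones at 4 h, which by itself pulls the first difference down and the second up, so these are descriptions. Both vector arrays lay above all 3 rga arrays at 4 h in 35 members (18.3% of all tested probe sets) and below all 3 at 2 h in 34 (32.7%). They lay above all 3 at 2 h in 10 members (19.6%) and below all 3 at 4 h in 3 (32.6%).

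Single genes showed each of these positions. AT2G22880 gave 791 and 836 in vector mock, above every rga array at either time, where its highest mock value at 2 h was 355. AT1G52200 (6880 and 7415) and AT2G44370 (2365 and 2532) were likewise above all rga mock arrays. AT1G19380 gave 3299 and 3511 and AT1G69840 gave 1756 and 1971, in both cases between the arrays of the 2 times. AT1G02620 (53.8 and 89.5) and AT3G47180 (21.0 and 29.4) lay below every rga mock array. Line and any other difference between the lines' samples cannot be told apart here, and the vector line has no 2 h arrays from which its own time course could be read.

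**Figure D5:**
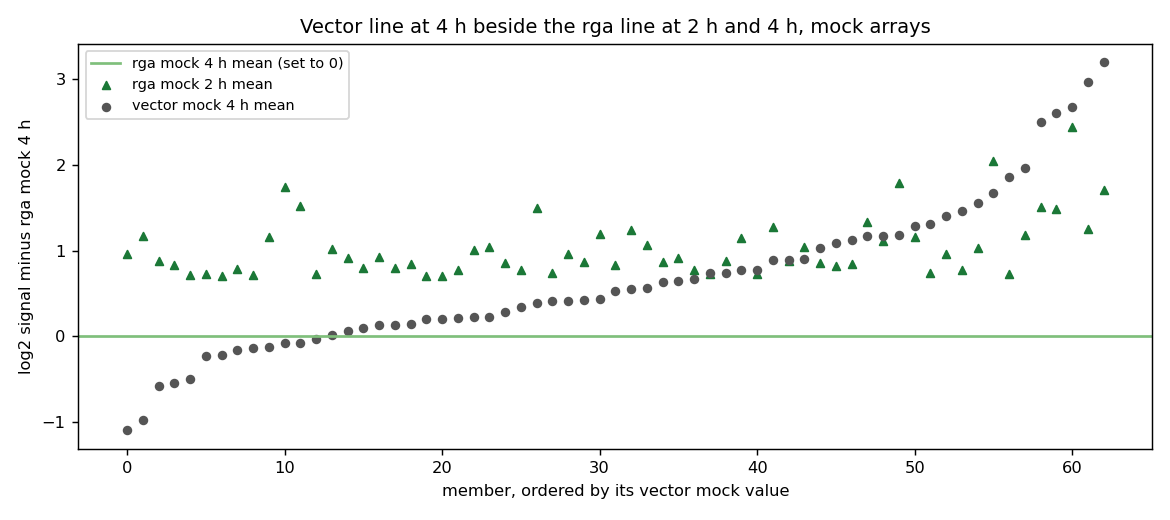
Mean log2 signal of the vector line's mock arrays at 4 h (grey points) and of the rga line's mock arrays at 2 h (triangles), each minus the rga line's mock mean at 4 h (line at 0), for the 63 members in order of the vector value. The vector mean lies above the triangle in 19 members, between triangle and line in 31 and below the line in 13.

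A further 90 probe sets met every other condition but went past the vector line's bounds. On the DEX arrays, 48 of them (53.3%) were called lower and 1 higher from 2 h to 4 h. Among all tested probe sets 2.2% were called lower and 1.95% higher. With the 90 included, 86 of 153 were called lower, and the median change was -0.80.

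Lists of known genes were read in the same comparison. The 23 lists hold 529 genes, of which 50 were tested, in 17 lists, so most lists rest on few genes. List genes were matched by symbol or synonym to probe sets with 1 gene in the probe table. A list gene left out was therefore not necessarily absent from the array or dim. Of the 63 members, 0 are on any list. The 29 named ones go by locus codes and the other 34 have no gene in the probe table, so nothing is read from this 0. Across all lists, 1 of the 50 tested genes was called lower and 2 higher from 2 h to 4 h with DEX. Among all tested probe sets 2.2% were called lower and 1.95% higher, and nothing is read from the list counts about any pathway. The gene called lower was HAT2, an auxin-induced homeodomain gene (-0.90 ± 0.23, adjusted p = 0.0335), whose mean signals were 317 at 2 h and 171 at 4 h with DEX. Its mock means in the rga line were 496 at 2 h and 248 at 4 h. In the vector line HAT2 had a mean of 525 in mock and 33.5 with DEX. The 2 genes called higher were the gibberellin receptor gene GID1A (0.53 ± 0.12, adjusted p = 0.0197) and DFR, which encodes an enzyme of anthocyanin synthesis (0.75 ± 0.20, adjusted p = 0.0409). GID1A was the 1 called gene among 9 tested of 31 in the gibberellin list, whose median change was -0.04. Of the early touch, wound and stress list, 7 of 34 genes were tested and limma called 0 (2 at an unadjusted p below 0.05), with a median of -0.14. Its smallest p belonged to PUB22, a ubiquitin ligase gene (-0.62 ± 0.20, adjusted p = 0.109). The clock gene GI, the 1 tested gene of 24 on the circadian list, gave 0.07 ± 0.10 (adjusted p = 0.837).

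Marker sums were read beside the time change. With DEX, 4 matched photosynthesis genes of 24 summed to 59900 to 62200 at 2 h and 55300 to 62500 at 4 h. The 6 matched shoot tissue markers of 24 summed to 4980 to 5740 at 2 h and 5710 to 6100 at 4 h. In mock, the shoot tissue sum was 8100 and 8240 in the vector line and 4770 to 6330 in the rga line. Most of it came from 1 gene, FDH, with mock means of 7750 in the vector line and 4700 (2 h) and 5260 (4 h) in the rga line. FAMA, MUTE, TRY and CLV3 had lower mock means in the vector line than in the rga line at either time. Of these, MUTE and CLV3 were among the dim probe sets left out of the test. The mock means of CLV3 (1.97 in the vector line, 7.28 and 5.39 in the rga line) were under the floor of 8. SPCH lay between (242, against 252 and 229), so the sum does not speak for the markers as a set. Of 15 root markers 2 were matched, EXPA7 and EXPA18. With DEX they summed to 247 to 343 at 2 h and 176 to 305 at 4 h. Their sum in mock was 75 and 127 in the vector line and 168 to 295 in the rga line. None of the tested genes of these 3 lists was called in the time comparison (limma, with 0 at an unadjusted p below 0.05), and their part in the members' change was not tested.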

How the data were processed

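The authors deposited linear intensities for each probe set and array. The submitters' processing notes name MAS5 as the tool; its version is not given in the sources used here, and no detection calls were used. All 16 arrays had a mean intensity near 500 once the top and bottom 2% were trimmed, and that scaling was kept. Precision is limited by the number of arrays, 3 per rga group and 2 per vector group.

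Signals under 8 were set to 8, log2 was taken, controls (64 of 22810 probe sets) and the dimmest 25% by mean log2 value were left out, and 17059 were tested with limma 3.58.1 in R 4.3.3 as 1 model of 6 group means, eBayes with a trend, and Benjamini-Hochberg adjustment over all of them. Called means an adjusted p below 0.05. Errors are SEs. The fit was tried on simulated data with known changes for the DEX time comparison only. The averaged effect and the selection of members were not simulated. Same-numbered replicates did not pair: the correlation of their deviations from the group means ran from -0.05 to 0.14 over 12 pairs, with 1 above 0.1.

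By the probe table, 13513 probe sets stand for 1 gene, 503 for several and 8730 for none that it lists; names were updated through RefSeq (TAIR10.1). Named genes were the members with the largest mock difference (10), the highest 2 h signal (5), the smallest p (10) or the highest change (5) in the DEX time comparison, the called averaged effects, the probe sets nearest each threshold and up to 3 genes per list; AT2G24600, AT2G34700, AT4G30060 and AT5G67020 were named outside it, after their values were seen, as were the probe sets without a gene. The members, lists and tests were chosen with earlier results of these data known. A planned search for motifs in promoters was not run, as no sequences were used here. Alternatives were other normalizations, floors, filters, variance models, sets of arrays, a replicate block, a minimum fold of 1.5, other thresholds of the selection, and each array of the groups compared left out in turn; the selection without the vector condition was chosen after seeing the data.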

Additional observations from a re-analysis of the deposited data

How the results depend on the processing

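The number of members moved with the thresholds of the selection: it was 100 at a difference of -0.6 or lower, 26 at -1 or lower and 153 without the vector condition. It ran from 57 to 113 when each of the 10 arrays the selection used was left out (113 without mock 2 h replicate 1, 99 without mock 2 h replicate 2 and 95 without mock 4 h replicate 3); with fewer arrays the condition of no overlap is easier to meet. The count of the 63 called lower with DEX ran from 31 to 38 over the other settings and from 31 to 35 with each of the 6 DEX arrays of the rga line left out, 0 were called higher in each of these, and the median ran from -0.95 to -0.86 with those arrays left out; without the vector condition 86 of 153 were called lower. Over all probe sets, 226 were lower and 193 higher without the trend in eBayes, 228 and 207 with a minimum of 1.5-fold, and 188 to 289 and 172 to 304 with DEX arrays left out; leaving out replicate 1 or 2 of DEX 2 h or replicate 2 of DEX 4 h moved both counts by over 1.5 times, and leaving out replicate 1 or 3 of DEX 4 h the higher one. For the averaged DEX effect, a minimum of 1.5-fold left 2 members lower and 1 higher, and 158 and 477 over all probe sets; with each of the 12 rga arrays left out, the members called were 4 to 7 in each direction, all probe sets 480 to 659 lower and 793 to 977 higher, and the members' median -0.03 to 0.09. With a replicate block, 37 members were called lower in the time comparison, and 6 were lower and 6 higher in the averaged effect; the block ended the call of AT5G67020 and of no other named member. AT5G67020 also lost its call under 5 other settings. The calls of AT5G39580 were lost without the dim filter and without the trend, and AT4G30060 was called lower without DEX 4 h replicate 3 (-0.83). No called change of a named member turned sign, but among uncalled ones 5 time changes and 6 averaged effects did in at least 1 setting, as did the members' median averaged effect. The signal over background is not known without detection calls, and 11 of the 32 dimmer members were called.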
